A study of Mus musculus with 2 samples.

Results

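The genes described here are the chaperones and proteases that keep the protein content of mitochondria in order, 10 genes in all: Hspd1, Hspe1, Hspa9, Dnaja3, Trap1, Lonp1, Clpp, Afg3l2, Yme1l1 and Htra2. They were chosen by name, and a probe belonged to a member when its RefSeq accession did. All 10 had a probe, 13 probes in all, among the 20656 genes that could be named on the array. All 10 were also well above background, by the scanner software's own flag, on both arrays, as were 12751 genes in total.

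Bone marrow-derived macrophages (BMDMs) are grown from mouse bone marrow with M-CSF, and IL-4 is the Th2 cytokine that drives them toward the M2-like state. They were grown here from male mice of 8 weeks that carry floxed Crif1 alleles (Crif1 f/f). The microarray methods name no Cre, and both groups share this genotype. RNA of untreated BMDMs, and of BMDMs given IL-4 for 18 h, was labelled with Cy3 and read on 1 array per condition, 2 arrays in all. With a lone array on each side the spread between cultures is unknown, so every difference below is a description of these arrays, without a p-value. In bulk RNA, fewer cells of a type and less RNA per cell cannot be told apart. M-CSF cultures were checked by the authors for CD11b and F4/80, and the genes of these proteins, Itgam and Adgre1, were well above background on both arrays, as was Csf1r, the M-CSF receptor.

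Mitochondria import nearly all of their proteins as unfolded chains, which must be pulled through the membranes, folded and, when damaged, degraded. In the matrix, mtHsp70 pulls in and holds the chain, and the chaperonin barrel of Hsp60, closed by its lid Hsp10, lets it fold. ATP-driven proteases then clear what stays misfolded or unassembled: Lonp1 and ClpP in the matrix, and the m-AAA and i-AAA proteases on either face of the inner membrane. When this system is overloaded, cells can raise several of these genes together, a programme known as the mitochondrial unfolded protein response. The arrays ask which of these genes differ between BMDMs with and without IL-4.

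The members that lie on the genome as neighbours show the sequence most directly. Hspd1, which encodes Hsp60, and Hspe1, which encodes Hsp10, are transcribed in opposite directions from starts that lie 216 bases apart. A further annotated Hspd1 start lies 95 bases beyond the Hspe1 start, so the shared stretch is also inside the longer Hspd1 transcription unit. The stretch between the starts that point away from each other is shown because both genes have a start at its ends. It covers chr1:55087933-55088147 of GRCm38.p6 and is written in the direction of Hspe1, taken from RefSeq, with capitals marking a run of letters of the heat shock element, the motif that HSF1 binds.
Hspd1-Hspe1: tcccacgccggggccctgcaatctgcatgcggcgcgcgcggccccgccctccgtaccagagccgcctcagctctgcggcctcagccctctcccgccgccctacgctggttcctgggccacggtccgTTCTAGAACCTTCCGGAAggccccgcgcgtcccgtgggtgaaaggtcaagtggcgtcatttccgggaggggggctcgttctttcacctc

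Counted from the Hspe1 start, the element's letters occurred as TTCTAGAA from base -89 and as TTCCGGAA from base -79, joined by the overlapping GAACCTTC from base -84. Of 32851 RefSeq promoter windows, each reaching from 250 bases before a start to 50 bases after it, 8.5% held the letters TTCNNGAA and 7.9% held GAANNTTC. An ETS core, CCGGAAG on either strand, overlapped the second of these. That core was in 8.9% of all windows and in windows of 5 members, of which Hspd1 and Hspe1 share this site. The Clpp window also held TTCCGGAA, from base 34 after its start. The Hspe1 window was 71.0% G and C, while the median of all windows was 52.7%.

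**Figure D1:**
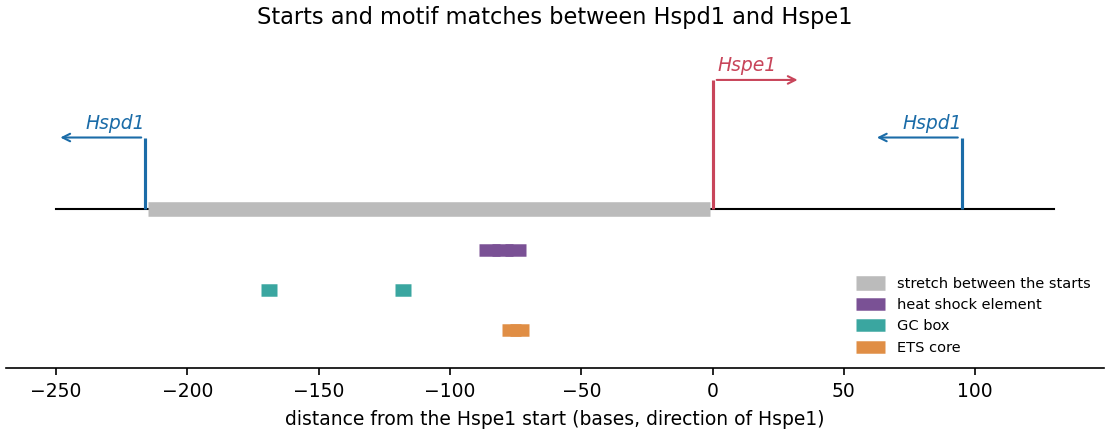
Annotated starts (arrows, in the direction of transcription) and motif matches (coloured blocks) around the stretch shared by Hspd1 and Hspe1, plotted as distance in bases from the Hspe1 start. The matches to the heat shock element lie in a run from base -89 to base -72, between the Hspe1 start and the Hspd1 start 216 bases before it.

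Windows were read for 7 of the 10 members, in 8 windows, since Hspd1 has more than 1 start. Hspa9, Afg3l2 and Htra2 were not searched, so every count of members with a motif is out of 7. Dnaja3, Yme1l1 and Clpp are shown because their last 100 bases before the start hold a core of a factor tied to mitochondrial genes or to cytokine signalling. Capitals mark the core of NRF1, a factor that switches on nuclear genes for respiration, in Dnaja3 (chr16:4683970-4684069), ETS cores, which GABP binds, in Yme1l1 (chr2:23156405-23156504), and a STAT core in Clpp (chr17:56990164-56990263), all on the + strand of GRCm38.p6.
Dnaja3: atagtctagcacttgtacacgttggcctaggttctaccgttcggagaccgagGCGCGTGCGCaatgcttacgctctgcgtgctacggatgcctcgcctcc
Yme1l1: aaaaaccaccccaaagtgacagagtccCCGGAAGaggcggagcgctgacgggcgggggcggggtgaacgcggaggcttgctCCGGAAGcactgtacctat
Clpp: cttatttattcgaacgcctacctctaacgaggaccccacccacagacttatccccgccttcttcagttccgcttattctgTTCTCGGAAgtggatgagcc

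The STAT core, TTC and GAA with 3 bases between them, was in 8.3% of all windows, and of the member windows only that of Clpp held it. The form with 4 bases between, which STAT6 prefers, was in 7.0% of all windows and in 0 of the 8 member windows. The composite of CHOP and ATF4, written TGATGNAA, was in 4.0% of all windows and likewise in 0 member windows. The NRF1 core, GCGCANGCGC on either strand, was in 4.6% of all windows and in windows of Dnaja3 and Hspd1. The CCAAT box was in 37.4% of all windows and in windows of 3 members. The GC box, GGGCGG, was in 35.7% and in windows of 5 members, and the Hspe1 matches lay in an Hspd1 window as well. These matches describe letters in a window of fixed length, and no binding was measured.

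On the arrays, 9 of the 10 members had a higher signal after IL-4, by small amounts, and the other, Htra2, had a log2 difference of -0.03, and the signs of Yme1l1 and Htra2 turned under some alternative settings. Over the members, the median log2 difference between IL-4 and untreated BMDMs was 0.19, or 1.14-fold, and the values ran from -0.03 to 0.34. Over all 12751 genes above background on both arrays the median was -0.01, and 47.7% had a difference above 0. All values are log2 intensity after subtraction of each array's 75th percentile, 9.84 for untreated and 9.94 for IL-4. Where several probes read 1 gene, the brightest stands for it.

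None of the members differed by as much as 1.5-fold. At that fold, 5.03% of all genes were higher after IL-4 and 5.27% were lower, and at 2-fold 2.32% were higher and 1.44% lower, with 0 members among them. At a log2 difference of 0.322, 1 member was higher, Afg3l2, against 11.5% of all genes, and 0 members were lower, against 14.5% of all genes. Clpp lay just below that cutoff. Afg3l2 was itself below it with quantile normalization, at 0.31, with the 75th percentile of detected probes, at 0.29, and with normexp, at 0.30. The members' differences thus lay within the range that most genes covered, from -0.60 at the 5th percentile to 0.59 at the 95th, and mainly in its upper part: 25% of all genes were above 0.15, and 5 members were.

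**Figure D2:**
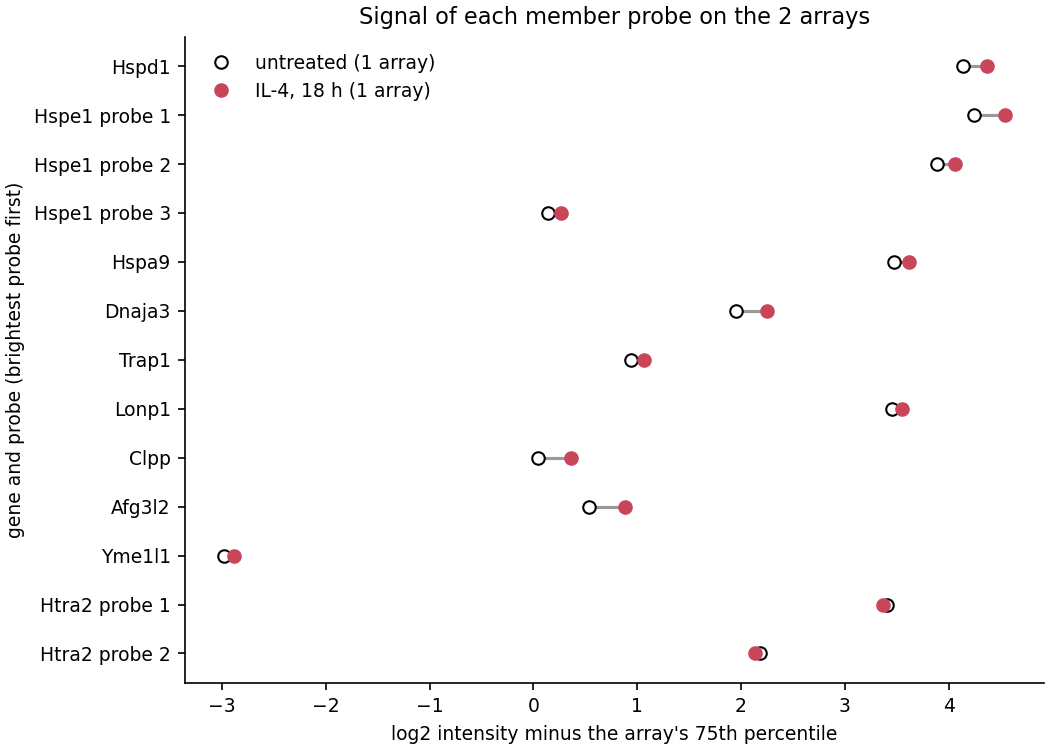
Scaled log2 intensity (x axis, log2 units above the array's 75th percentile) of the 13 member probes on the untreated array (open circles) and the IL-4 array (filled circles), 1 array each. The IL-4 point lies to the right for every probe except those of Htra2; distances along the axis between different probes carry no meaning, since probes bind with different strength.

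Each member probe was printed in 1 spot, and none carried an outlier flag. The spot error was read from probes printed in 10 spots, as the median SD of their log2 difference among those of similar signal, and it ranged from 0.045 to 0.12 over the member probes. The software's own error, about 10% of the intensity on each array for most of these spots, carries over to 0.20 to 0.24 on the log2 difference. The differences of 8 members exceeded their spot error and those of 5 members exceeded the software's error, and neither error covers the spread between cultures. The share of all genes past these errors was not counted, so neither count is read as a trait of the members. Of all genes, 25% lay below -0.19 and 25% above 0.15, both beyond the highest spot error of 0.12 and short of the software's 0.20. The count past the software's error ranged from 3 with quantile normalization to 10 with spike-in scaling. Dnaja3, Clpp and Afg3l2 were in it under every setting tried. With quantile normalization Hspd1 fell short at 0.13 and Hspe1 at 0.19. Hspd1 also fell short with cyclic loess, at 0.19, and with the 75th percentile of detected probes, at 0.18. Hspe1 exceeded the software's error only at its brightest probe under the reported scaling, as its other probes gave 0.18 and 0.13.

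Both chaperonin subunits had a higher signal with IL-4. The Hspd1 probe had an intensity of 16092 untreated and 20314 with IL-4, a log2 difference of 0.24 (1.18-fold; spot SD 0.052). Hspe1 had 3 probes, and the brightest had an intensity of 17400 untreated and 22834 with IL-4, a log2 difference of 0.29 (1.23-fold; spot SD 0.059). Its other probes went from 13507 to 16343 and from 1007 to 1178, log2 differences of 0.18 and 0.13. All 4 probes of the pair were thus higher on the IL-4 array, and the range of 0.17 among the Hspe1 probes was near the median range of 0.14 that 3292 genes with several probes showed. By the differences alone, 83.7% of all genes lay below Hspd1 and 87.1% below the brightest Hspe1 probe.

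Among the chaperones that meet the incoming chain, Dnaja3 differed most. Dnaja3 encodes the J-domain cofactor that stimulates the ATPase of mtHsp70, and its intensity was 3540 untreated and 4665 with IL-4, a log2 difference of 0.30 (1.23-fold; spot SD 0.052). Hspa9, mtHsp70 itself, also called mortalin, went from 10141 to 12020, a log2 difference of 0.15 (1.11-fold; spot SD 0.047), less than the software's error of 0.20. Trap1, the Hsp90 of mitochondria, had 1758 untreated and 2047 with IL-4, a log2 difference of 0.12 (1.09-fold; spot SD 0.056). All 5 chaperones were therefore higher after IL-4, with a median log2 difference of 0.24, and of the 3 in this paragraph Dnaja3 alone exceeded the software's error.

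The proteases were less uniform, with a median log2 difference of 0.10. Clpp, the proteolytic chamber of the ClpXP protease, went from 942 to 1257, a log2 difference of 0.32 (spot SD 0.057). Lonp1, the other ATP-driven protease of the matrix, which degrades oxidized proteins and binds mitochondrial DNA, went from 10011 to 11462, a log2 difference of 0.10 (1.07-fold; spot SD 0.048). Of the matrix proteases, Clpp exceeded the software's error and Lonp1 did not.

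At the inner membrane, Afg3l2, a subunit of the m-AAA protease that faces the matrix, had the largest difference of the 10 members, except with normexp background correction, where Hspe1 and Clpp were higher. Its intensity was 1328 untreated and 1804 with IL-4, a log2 difference of 0.34 (1.27-fold; spot SD 0.057), and 89.4% of all genes lay below it. Yme1l1, the i-AAA protease that faces the intermembrane space, was read from a dim probe with 116 untreated and 133 with IL-4, a log2 difference of 0.09 (1.07-fold), less than its spot SD of 0.12. That difference was -0.05 with normexp, 0.19 with quantile normalization and 0.23 with cyclic loess. Htra2, a serine protease of the intermembrane space that can promote apoptosis once released, went from 9691 to 10143 at its brighter probe and from 4164 to 4322 at its dimmer one. The raw intensities were a little higher on the IL-4 array, by less than the shift of its 75th percentile, and the scaled log2 differences were -0.03 and -0.05, each within its spot SD of 0.049 and 0.051. Htra2 alone among the members lay below the median of all genes under the reported scaling, and its probes differed by 0.012.

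**Figure D3:**
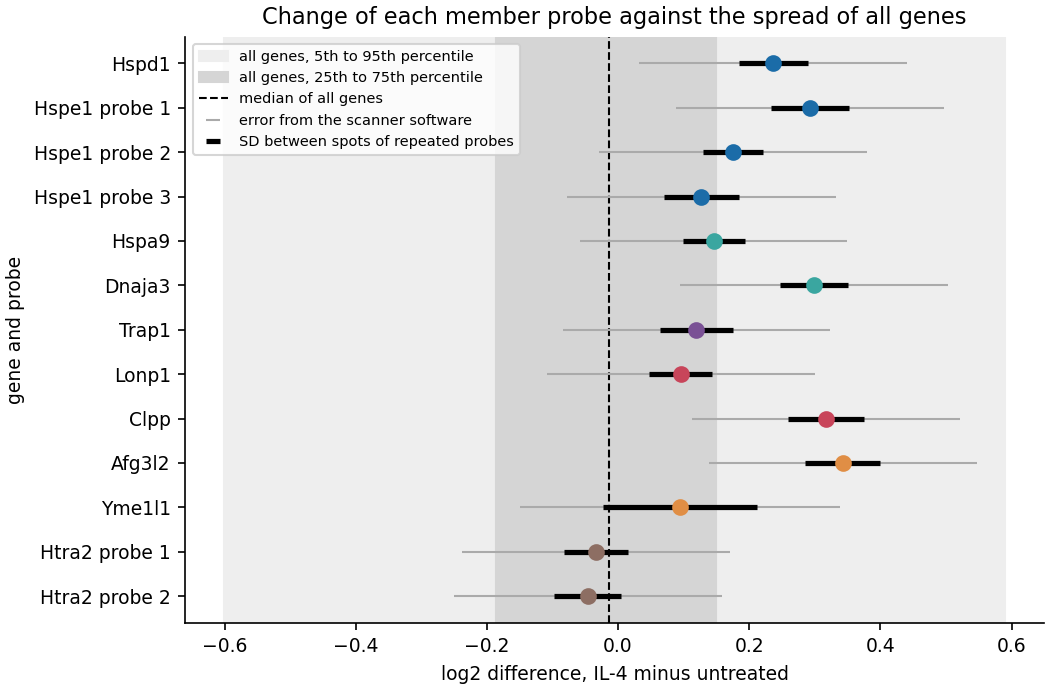
Log2 difference, IL-4 minus untreated (x axis), of each member probe (points, coloured by role), with the SD between spots of repeated probes (thick bars) and the software's error (thin bars), over the 5th to 95th and 25th to 75th percentiles of all genes (shaded) and their median (dashed). Afg3l2, Clpp, Dnaja3, Hspd1 and the brighter Hspe1 probes lie right of the 75th percentile, and both Htra2 probes lie left of the median.

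The median difference of all genes varied with signal, so each member was also set against the genes within 0.5 log2 units of its own mean signal. The median difference of these genes ran from -0.11 around Yme1l1 to 0.07 around the brightest Hspe1 probe. Above that local median lay 9 members, by 0.05 for Lonp1 up to 0.33 for Afg3l2 and 0.32 for Clpp. Htra2 was 0.08 below it.

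The scaling of the arrays sets where 0 lies. The median of the 10 members exceeded the median of all genes by 0.20 under the reported scaling and by between 0.16 and 0.22 under the alternatives tried. Median, spike-in, detected-probe and no scaling shift every gene by the same amount. They could thus change neither that distance nor which members lay above the median of all genes. Of the members, 9 of 10 lay above it in every setting. The member below was Htra2, except with normexp background correction, where it was Yme1l1. With median scaling 7 members passed the log2 cutoff of 0.322, but so did 30.6% of all genes, and with spike-in scaling 9 did, against 41.6% of all genes. With quantile normalization 0 members passed it, against 12.8% of all genes, and with the 75th percentile of detected probes 0 did, against 9.26%.

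**Figure D4:**
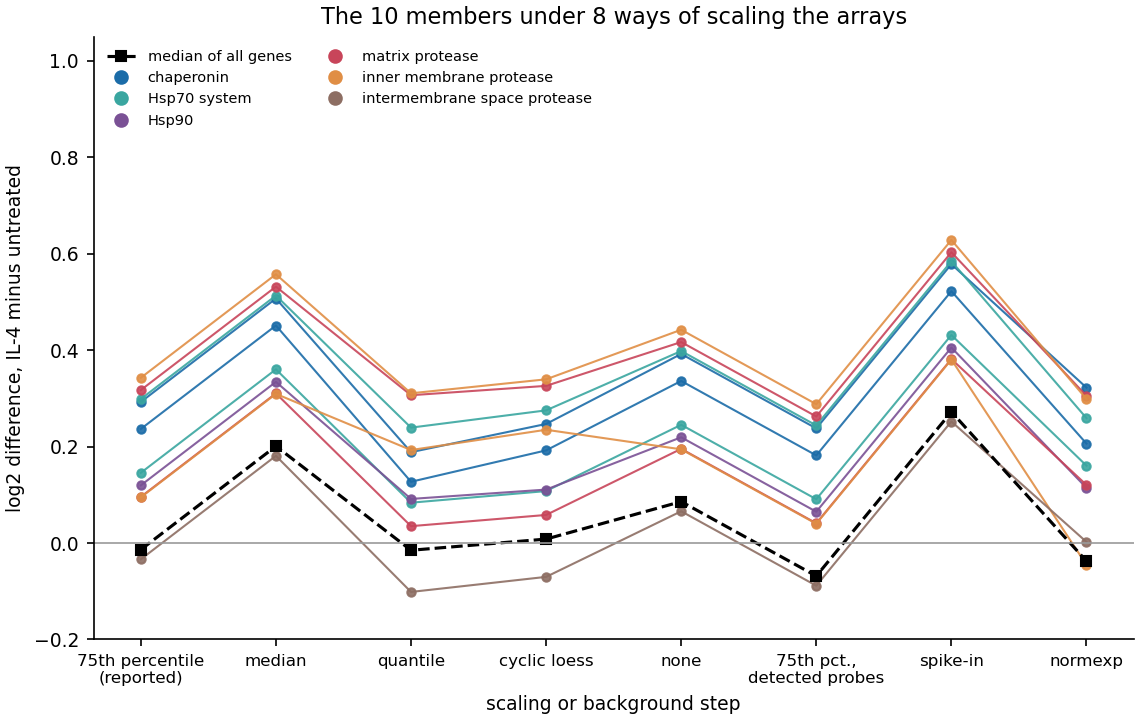
Log2 difference of the 10 members (coloured lines, by role) and the median of all genes (black squares) under 8 ways of scaling or background correction (x axis). Median, spike-in, detected-probe and no scaling move members and median together by construction. There the distance between the member median and the median of all genes is fixed at the reported 0.20. It is 0.17 with quantile normalization, 0.21 with cyclic loess and 0.22 with normexp.

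The partners of the members were centred lower. Their list held cofactors, further proteases and membrane scaffolds, 22 genes, all above background on both arrays, with a median log2 difference of 0.05. Of these genes, 18 lay above the median of all genes. By at least 1.5-fold, 1 was higher and 0 were lower. Of the genes that complete a member's machine, Clpx, the unfoldase that feeds Clpp, went from 1495 to 1605, a log2 difference of 0.00, where Clpp itself had 0.32. Spg7, which can assemble with Afg3l2 into the m-AAA protease, went from 13636 to 13449, a log2 difference of -0.12, where Afg3l2 had 0.34. Clpx and Spg7 thus had lower differences than Clpp and Afg3l2, each read from its own probe. Grpel1 and Phb2, given below, were higher than Hspa9 and Afg3l2 at their brighter probes but not at their dimmer ones.

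The nucleotide exchange factor of Hspa9, Grpel1, went from 8910 to 11454, a log2 difference of 0.26 at its brighter probe and 0.04 at a dim one. Dnajc19, a J-domain protein of the import motor, had the largest difference of the list, 1.15 at a probe that went from 2615 to 6222, but its other probe went from 3138 to 3964, a log2 difference of 0.24. The probes of Dnajc19 thus disagree by far more than the typical range between probes of a gene. The lowest value was that of Hscb, a J-domain protein of iron-sulfur cluster assembly, which went from 2990 to 2423, a log2 difference of -0.40.

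Phb2, a prohibitin of the ring-shaped scaffold that holds the m-AAA protease, went from 7901 to 11691, a log2 difference of 0.47, and its second probe gave 0.24. Phb, its partner in the ring, gave 0.00 at the brighter probe and 0.26 at the other. The regulatory inner membrane proteases Oma1 and Parl had -0.25, from 352 to 317, and 0.18, from 4102 to 4984. Over the 12 partner proteases and protease subunits the median was 0.01, below that of the member proteases.

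The machinery that imports proteins into mitochondria had the highest median of the 4 related lists. Its 21 genes had a median log2 difference of 0.23, 19 lay above the median of all genes, and 5 were past a log2 difference of 0.322. The small Tim chaperones, which carry membrane proteins across the intermembrane space, were higher in 5 of 5: Timm10 went from 5080 to 7962, a log2 difference of 0.55 with 0.42 at its other probe, and Timm8a1, Timm8b, Timm9 and Timm13 had 0.44, 0.41, 0.39 and 0.23. The lowest of the list was Tomm34, a cochaperone of the cytosol that helps precursors reach the outer membrane, at -0.33. None of these 21 genes reached 1.5-fold in either direction.

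**Figure D5:**
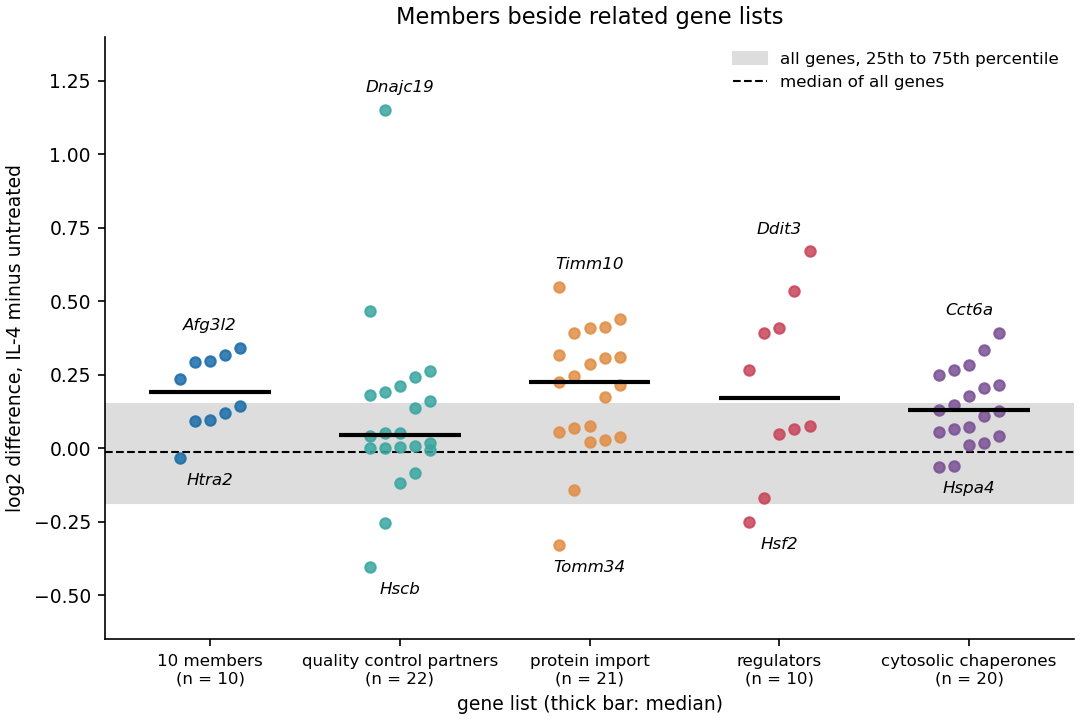
Log2 difference, IL-4 minus untreated (y axis), of the 10 members and of the genes of 4 related lists above background on both arrays (points), with the list median (thick bar), the 25th to 75th percentile of all genes (shaded) and their median (dashed). The import genes have a median of 0.23, close to the members' 0.19, while the quality control partners have 0.05.

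Of the transcription factors tied to mitochondrial stress and biogenesis, 12 were listed and 10 were above background on both arrays, with a median log2 difference of 0.17. Ddit3, which encodes CHOP, went from 909 to 1550, a log2 difference of 0.67 (1.59-fold), the only one of the list past 1.5-fold. Cebpb, which encodes C/EBPβ, a partner of CHOP, went from 10026 to 15569, a log2 difference of 0.54. Atf4 gave 0.41 at its brighter probe and 0.29 at the other, and Atf5, named for control of the mitochondrial unfolded protein response, went from 35470 to 45677, a log2 difference of 0.27. Over the whole list, 8 of the 10 factors lay above the median of all genes.

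Hsf1, the heat shock factor whose motif letters lie between Hspd1 and Hspe1, went from 1576 to 1779, a log2 difference of 0.08, and Hsf2 had -0.25, the lowest of the list. Ppargc1b, which encodes the coactivator PGC-1β, was well above background only with IL-4, at least 1.84-fold higher, and Ppargc1a was well above background on neither array. Esrra, a nuclear receptor that works with these coactivators, had 0.39.

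Chaperones of the cytosol were read for comparison, 21 listed of which 20 had a probe, all above background on both arrays. Their median log2 difference was 0.13, 18 lay above the median of all genes, and 0 passed 1.5-fold at the brightest probe. The dimmer Dnaja2 probe did pass it, at 0.63, where the brighter one had 0.18. Ptges3 had 0.06 at its brightest probe and 0.07, 0.49 and 0.32 at the others. The 8 subunits of the cytosolic chaperonin, the counterpart of Hsp60, had a median of 0.18, with the highest value at Cct6a, 0.39, and the lowest at Cct7, 0.04. The Hsp70 system was mixed, with 0.33 for Hsph1 but 0.02 for Hspa8, 0.01 for Dnajb1 and -0.06 for both Hspa1a and Hspa4, the latter the lowest of the list. The dimmer probes of Hspa4 went the other way, at 0.20 and 0.29. Small positive differences were thus seen for the cytosolic chaperonin as well as for the mitochondrial one.

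The arrays carried a clear IL-4 response: Arg1 was 216-fold higher, Chil3 14.2-fold and Mrc1 5.33-fold, and Retnla, not well above background in untreated BMDMs, at least 595-fold. Against these, the differences of the members are small. Of 8 macrophage markers 7 had a probe, and 5 of these, Itgam, Lyz2, Mertk, Fcgr1 and Cd14, were at least 1.5-fold lower after IL-4 at their brightest probe, from -0.70 to -1.42 on the log2 scale, while Csf1r and Adgre1 had 0.09 and 0.17. The dimmer Itgam probes gave -0.24 and -0.27, short of that fold, and the dimmer Csf1r probes gave 0.05 and -0.11. Of 20 markers of other cell types 19 had a probe, 9 were above background on neither array and 10 on both. The B cell and erythroid markers were among the 9, with Cd3g, Cd8a and Epx. Of the fibroblast genes, the collagens were bright on both arrays: Col1a1 went from 58153 to 49150, a log2 difference of -0.34, and Col3a1 had -0.03. Pdgfra was dimmer, from 784 to 1194, a log2 difference of 0.51. Past 1.5-fold at the brightest probe were 2 of these markers, both neutrophil genes and both lower. The neutrophil genes Ngp, Camp and Elane had -0.80, -0.61 and -0.23, Cd3e -0.31, Cd4 0.00, Prg2 0.37 and Siglecf -0.02. The dimmer Camp probe gave -0.45, short of 1.5-fold, and the dimmer Cd4 probe was well above background only on the untreated array. The part of these cell types in the members' differences was not tested.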

How the data were processed

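Per the labels and the file headers, 1 single-colour Agilent array was read per condition with Feature Extraction 10.10.1.1. The authors deposited each spot's intensity, background-subtracted and detrended by the software with no scaling between arrays, and also processed log2 values, used as an alternative. The medians of that table's columns are 0.16 for untreated and 0.02 for IL-4; its differences between arrays follow the 75th percentile scaling, while its levels are shifted probe by probe and this centring stays unknown. The array design is annotated on mm9, so no gene coordinates are given. Promoter windows are RefSeq, GRCm38.p6.

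Control spots and outlier spots were left out, log2 intensity was averaged over the spots of a probe and each array's 75th percentile was taken off. Of 39424 probes, 27229 were named through RefSeq accessions. A probe was well above background when most of its spots carried the flag. Where this held on 1 array only, a fold is a bound. The spot error is the median SD over probes printed in 10 spots within 1 log2 unit of signal. Members, lists, folds and motifs were chosen with earlier results of these data known. Besides the members, the genes named are the highest and lowest of each list, those changed at least 1.5-fold, those not above background on both arrays, the markers, and the partners Clpx, Spg7, Grpel1, Phb, Phb2, Oma1, Parl, Atf5, Atf4, Ddit3 and Hsf1. Timm8a1, Timm8b, Timm9, Timm13, Cebpb, Esrra, Cct7, Hsph1, Hspa8, Dnajb1, Hspa1a, Dnaja2 and Ptges3 were named after their values were seen. Counting and motif search were tested on simulated data. Alternatives covered scaling, normexp with an offset of 50 on median pixel intensity, flagged spots, the probe rule and the fold. Scaling sets where 0 lies, and background correction matters most for dim probes. Python 3.11.15, numpy 2.4.6, pandas 2.3.3, matplotlib 3.10.9, R 4.3.3 and limma 3.58.1 were used.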

Additional observations from a re-analysis of the deposited data

How the results depend on the processing

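The median log2 difference of the members, 0.19, went to 0.48 with spike-in scaling, 0.41 with median scaling, 0.29 with none, 0.14 with the 75th percentile of detected probes alone and 0.14 when the dimmest probe stood for each gene. Apart from the last, these settings move all genes together by construction. Members at least 1.5-fold higher numbered 2 with spike-in scaling, Clpp and Afg3l2, against 12.6% of all genes, and 1 at a log2 cutoff of 0.322, which lowers the bar for all genes. Yme1l1, the dimmest, went from 0.09 to -0.05 with normexp, but to 0.19 with quantile normalization and 0.23 with cyclic loess, while Htra2 went from -0.03 to 0.00 with normexp. Htra2 was above 0 with median scaling, spike-in scaling and no scaling, at 0.18, 0.25 and 0.07. In the deposited processed values the members ran from -0.03 to 0.34. No paired analysis was possible because untreated and IL-4 were each read on 1 array. Arrays give no counting depth, and dim probes such as that of Yme1l1 are limited by signal over background.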
